A study of Mus musculus with 2 samples.

Results

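The 10 genes described here are receptors of the innate immune system and the proteins that help them signal: Cd14, Tlr4 and Tlr2 at the cell surface, Tlr13, Tlr7 and Tlr9 in endosomes, the adaptor Myd88, and the cytosolic proteins Ddx58 (RIG-I), Ifih1 (MDA5) and Tmem173 (STING). They were chosen by name, with earlier results of these data known, and all 10 were found among the 31017 gene symbols of the 2 mouse libraries. The question was which immune cells of each tumour carried the RNA of receptors that can trigger interferon.

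The tumours grew in the mouse mammary gland from injected cells of the line PyMT-N or of the line PyMT-M. PyMT stands for the polyoma middle T oncogene, and the labels do not say what N and M mean. Tumours were taken after 4 weeks at 0.7 to 1 cm across, and viable leukocytes, which carry the surface protein CD45 and exclude the dye DAPI, were sorted and sequenced with the 10x Genomics 5′ method. Each line had 1 library, and the labels give no treatment, no engineered allele and no number of animals for either. A transplanted line is a model of an established tumour and not of its slow origin in the gland. No difference between the tumours has a replicate check, and line, animal, sort and library cannot be told apart. All intervals are 95% and cover counting error only.

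Pattern recognition receptors bind molecules of microbes, or of damaged and dying cells, and start the transcription of cytokines. TLR4 with its partner CD14 binds bacterial lipopolysaccharide, TLR2 binds lipoproteins, and the endosomal TLR7, TLR9 and TLR13 bind single-stranded RNA, unmethylated CpG DNA and bacterial ribosomal RNA. These Toll-like receptors signal through MyD88, whereas RIG-I and MDA5 bind viral or self double-stranded RNA in the cytosol and STING answers the cyclic dinucleotide made when cGAS meets cytosolic DNA. Several of these genes are themselves induced by interferon in many cell types.

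The promoters of 5 of the genes are shown because they differ in 2 short motifs, one tied to interferon and one to myeloid cells. They were picked after the values were seen. The sequences are those of RefSeq for build GRCm38.p6, each from 250 bases before to 50 bases after the gene's start, 5′ to 3′ on the gene's own strand, and capitals mark a motif on either strand. The motifs searched were GAAA, any 2 bases, then GAAA, the core of the interferon-stimulated response element, and GAGGAAG, a core bound by PU.1-type ETS factors. The windows lay at chr4:40239776-40240075 on the minus strand (Ddx58), chr2:62646206-62646505 on the minus strand (Ifih1), chr9:119339969-119340268 on the minus strand (Myd88), chrX:106143025-106143324 on the plus strand (Tlr13) and chr9:106222348-106222647 on the plus strand (Tlr9).
Ddx58: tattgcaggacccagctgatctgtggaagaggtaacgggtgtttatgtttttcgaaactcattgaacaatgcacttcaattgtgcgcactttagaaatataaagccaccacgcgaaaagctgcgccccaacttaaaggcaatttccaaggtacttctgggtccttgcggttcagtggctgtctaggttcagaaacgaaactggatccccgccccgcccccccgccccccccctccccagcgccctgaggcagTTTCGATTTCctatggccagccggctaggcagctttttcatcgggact
Ifih1: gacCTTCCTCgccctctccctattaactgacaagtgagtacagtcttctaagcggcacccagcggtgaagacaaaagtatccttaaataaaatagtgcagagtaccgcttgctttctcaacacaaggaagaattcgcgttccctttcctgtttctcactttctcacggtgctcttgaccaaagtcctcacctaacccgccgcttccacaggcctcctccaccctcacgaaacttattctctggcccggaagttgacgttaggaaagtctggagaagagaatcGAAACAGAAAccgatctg
Myd88: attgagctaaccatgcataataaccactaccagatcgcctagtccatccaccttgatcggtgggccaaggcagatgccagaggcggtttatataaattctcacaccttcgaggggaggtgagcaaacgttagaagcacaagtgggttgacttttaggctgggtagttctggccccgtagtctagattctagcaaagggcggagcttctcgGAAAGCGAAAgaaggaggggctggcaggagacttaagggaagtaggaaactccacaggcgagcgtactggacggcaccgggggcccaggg
Tlr13: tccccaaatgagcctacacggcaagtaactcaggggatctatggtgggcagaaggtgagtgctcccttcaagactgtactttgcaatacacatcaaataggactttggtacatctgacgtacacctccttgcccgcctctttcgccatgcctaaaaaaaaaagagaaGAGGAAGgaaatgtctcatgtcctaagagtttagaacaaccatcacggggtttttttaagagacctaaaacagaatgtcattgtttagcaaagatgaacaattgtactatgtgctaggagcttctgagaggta
Tlr9: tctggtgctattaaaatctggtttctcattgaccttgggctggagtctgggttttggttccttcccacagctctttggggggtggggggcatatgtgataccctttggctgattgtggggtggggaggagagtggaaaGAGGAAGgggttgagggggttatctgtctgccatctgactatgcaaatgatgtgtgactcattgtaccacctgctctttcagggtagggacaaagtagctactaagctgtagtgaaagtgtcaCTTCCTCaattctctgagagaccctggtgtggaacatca
With the start base counted as 1, the base before it as -1, and positions given for the leftmost base as printed, the interferon motif lay at position 3 in Ddx58 on the opposite strand, at 33 in Ifih1 and at -40 in Myd88, the last 2 on the gene's strand. The ETS motif lay at -83 in Tlr13 and at -112 in Tlr9 on the gene's strand, and on the opposite strand at 12 in Tlr9 and at -247 in Ifih1. The motifs did not overlap, and no other copy of either lay in these 5 windows. Windows were read for 6 of the 10 members, and that of the remaining one, Tlr2, held neither motif. None was read for Cd14, Tlr4, Tlr7 and Tmem173. Among all 32851 promoters of the table, 1131 (3.44%) held the interferon motif and 4477 (13.6%) the ETS motif. A match is a run of letters and not a shown binding site.

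The PyMT-N library held 5020 barcodes with a median of 1955 unique molecular identifiers (UMIs, each counting 1 captured RNA molecule), and the PyMT-M library held 7476 barcodes with a median of 5069.5. After filtering, 4793 PyMT-N cells and 6917 PyMT-M cells were kept. In all, 60 barcode sequences occurred in both libraries, and without them no level of the 10 genes per class, no ratio between the tumours and no count of genes past 2-fold moved beyond its counting interval or by 1.5 times. Values within clusters, ranges and thinned cells were not recomputed without them. Cells were placed in classes by marker UMIs: neutrophil-like (3155 PyMT-N cells, 46 PyMT-M cells), macrophage-like (713 and 5086), monocyte-like (222 and 155), T-like (167 and 575), NK-like (38 and 489) and B-like (65 and 54), with smaller classes and 398 PyMT-N and 299 PyMT-M cells in none. The 12 neutrophil markers summed to 106869 counts per 1000000 UMIs of the class (CPM) in PyMT-N, against 91166 CPM in PyMT-M neutrophil-like cells, and all 12 were seen in both. The macrophage label held less evenly: the 12 macrophage markers summed to 24752 CPM in PyMT-N, against 62259 CPM in PyMT-M macrophage-like cells, and neutrophil markers there to 1005 and 157 CPM.

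Neutrophil-like cells held most of the sensor RNA of the PyMT-N tumour, and macrophage-like cells most of it in the PyMT-M tumour. In PyMT-N, 13764 of 18507 UMIs of the 10 genes, or 74.4% (73.7 to 75.0), lay in neutrophil-like cells, which held 45.7% of the UMIs of all genes. In PyMT-M, 21978 of 25361, or 86.7% (86.2 to 87.1), lay in macrophage-like cells, which held 72.1% of all UMIs. Cd14 alone gave 11875 of the PyMT-N UMIs, so each gene's own split follows.

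The genes did not share 1 split in PyMT-N. Neutrophil-like cells there held 82% of the Cd14 UMIs, 72.6% of Tlr13, 71.3% of Myd88, 62.1% of Tlr2, 57.7% of Ddx58 and 55.9% of Tlr4. They held 43.3% of Ifih1, 16.5% of Tlr7 and 12.7% of Tmem173, against 45.7% for all genes. Of 47 Tlr9 UMIs in PyMT-N, 0 lay in neutrophil-like cells, which allows a share of up to 7.55%, and 53.2% lay in macrophage-like cells. Macrophage-like cells were also the main holders of Tlr7 (46.7%) and Tmem173 (41.1%) in that tumour. In PyMT-M, macrophage-like cells held at least 93.0% of Tlr4, Tlr2, Tlr13, Tlr7 and Tlr9, but 77.8% of Myd88 and 67.5% of Ddx58, of which T-like cells held another 11.5%.

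**Figure D1:**
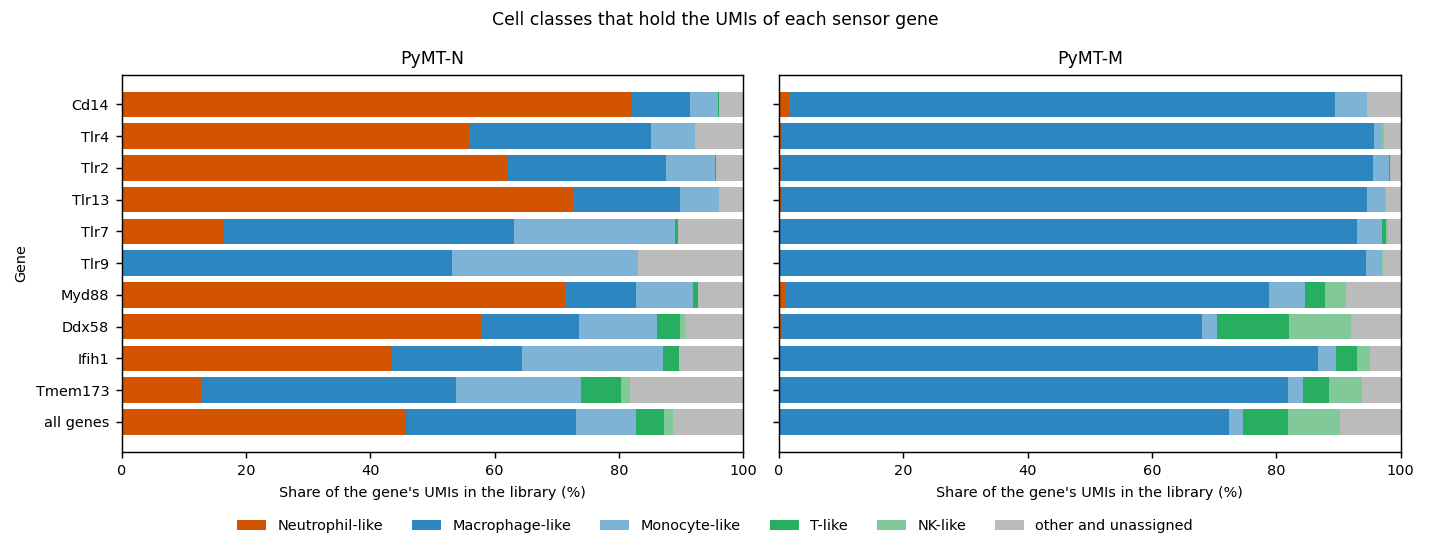
Share of each gene's UMIs held by each cell class, in percent, with PyMT-N in the left panel and PyMT-M in the right and all genes together in the bottom bar. Neutrophil-like cells hold 74.4% of the members' UMIs in PyMT-N, but 0 of those of Tlr9 and 12.7% of those of Tmem173, and macrophage-like cells hold 86.7% in PyMT-M.

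Among the surface receptors, Cd14 was highest in neutrophil-like cells of both tumours. It had 1526 CPM (9734 UMIs, 1496 to 1557) in PyMT-N, against 1579.6 CPM (119 UMIs, 1309 to 1890.2) in PyMT-M neutrophil-like cells. Monocyte-like cells had 399.7 CPM in PyMT-N, against 403 CPM in PyMT-M, and macrophage-like cells had 294 CPM in PyMT-N, against 225 CPM in PyMT-M. This order, neutrophil-like over monocyte-like over macrophage-like, held without overlap of intervals in each tumour. With every cell thinned to 1000 UMIs, 51.8% of 2975 PyMT-N neutrophil-like cells and 46.3% of 41 PyMT-M ones had a Cd14 UMI, against 61.8% and 60.9% of all cells of the class without thinning.

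T cells do not normally make CD14 and serve as the background. T-like cells had 23.4 CPM of Cd14 (15 UMIs) in PyMT-N and 0.695 CPM (2 UMIs) in PyMT-M, and 48.8 and 3.43 CPM without removal of doublets. A Cd14 UMI was seen in 0.617% of 162 thinned PyMT-N T-like cells and in 0% of 571 PyMT-M ones, and in 2.99% and 0.348% without thinning, at median depths of 3063 UMIs in PyMT-N and 4028 UMIs in PyMT-M T-like cells and of 1710 and 1639 UMIs in neutrophil-like cells. The neutrophil genes S100a8 and S100a9 stood in PyMT-N T-like cells at 0.904% of their neutrophil-like level, and the same share of Cd14 would be 13.8 CPM. The neutrophil markers together stood at 1052 CPM in T-like cells of PyMT-N and at 55.3 CPM in those of PyMT-M. Counted the same way, neutrophil RNA would give PyMT-N macrophage-like cells 10.6 of their 294 CPM.

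Tlr2 and Tlr4, the receptors for lipoproteins and lipopolysaccharide, were myeloid in both tumours. Tlr2 had 118 CPM (110 to 127) in PyMT-N, against 173 CPM (91.9 to 295) in PyMT-M neutrophil-like cells, 81.3 and 133 CPM in macrophage-like cells, and 71.3 and 109 CPM in monocyte-like cells. In PyMT-N its neutrophil-like level stood above the other classes, while in PyMT-M the intervals of neutrophil-like, macrophage-like and monocyte-like cells overlapped in turn. Tlr4 had 28.2 CPM in PyMT-N, against 66.4 CPM (5 UMIs, 21.6 to 155) in PyMT-M neutrophil-like cells, and 24.7 and 35.1 CPM in macrophage-like cells. Neutrophil-like and macrophage-like levels of Tlr4 did not differ beyond counting error in either tumour. T-like cells had 2 Tlr2 UMIs in PyMT-N and 7 in PyMT-M, and 0 Tlr4 UMIs in both.

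The endosomal receptors divided the myeloid classes. Tlr13, the mouse sensor of bacterial ribosomal RNA, had 113 CPM (722 UMIs, 105 to 122) in PyMT-N, against 106 CPM (8 UMIs, 45.8 to 209) in PyMT-M neutrophil-like cells. Macrophage-like cells had 44.7 CPM in PyMT-N, against 49.3 CPM in PyMT-M, and monocyte-like cells had 46.8 and 49.4 CPM. T-like cells had no Tlr13 UMI, which limits the level to 5.77 CPM in PyMT-N, against 1.28 CPM in PyMT-M. The PyMT-N neutrophil-like level lay above the other classes, whereas the 8 UMIs of PyMT-M could not separate neutrophil-like from monocyte-like cells.

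Tlr7 and Tlr9 ran the other way in PyMT-N. Tlr7 had 6.58 CPM (42 UMIs, 4.75 to 8.90) in PyMT-N neutrophil-like cells and 0 UMIs in the 46 PyMT-M ones, which allows up to 49.0 CPM. In macrophage-like cells it had 31.3 CPM in PyMT-N, against 30.5 CPM in PyMT-M, and in monocyte-like cells 49.0 and 40.6 CPM. Tlr9 had 0 UMIs among 3155 PyMT-N neutrophil-like cells, an upper limit of 0.578 CPM, and 0 in PyMT-M, against 6.58 and 23.8 CPM in macrophage-like cells and 10.4 and 20.9 CPM in monocyte-like cells. So of the 3 endosomal receptors among the members, neutrophil-like cells of PyMT-N were highest for Tlr13, held a low level of Tlr7 and had no detected Tlr9.

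The adaptor Myd88 followed the order of Cd14. Neutrophil-like cells had 308 CPM (1965 UMIs, 295 to 322) in PyMT-N, against 478 CPM (36 UMIs, 335 to 662) in PyMT-M. Monocyte-like cells had 186 CPM in PyMT-N, against 213 CPM in PyMT-M, macrophage-like cells 83.1 and 91.3 CPM, and T-like cells 34.4 and 35.5 CPM. These 4 levels descended without overlap of their intervals in both tumours. In neutrophil-like cells 25.4% of thinned PyMT-N cells and 39.0% of thinned PyMT-M cells had a UMI of Myd88, against 6.68% and 8.94% of macrophage-like cells.

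The cytosolic sensors were spread over more classes. Ddx58, which encodes RIG-I, had 32.8 CPM (209 UMIs, 28.5 to 37.5) in PyMT-N, against 92.9 CPM (7 UMIs, 37.4 to 191) in PyMT-M neutrophil-like cells. Macrophage-like cells had 15 CPM in PyMT-N, against 33.6 CPM in PyMT-M, monocyte-like cells 34.2 and 38.4 CPM, and T-like cells 20.3 and 56.3 CPM. NK-like cells had 14.6 CPM (3 UMIs) in PyMT-N, against 43.0 CPM (141 UMIs) in PyMT-M. Each class overlapped its neighbour in the order of Ddx58 levels, in both tumours, but some classes further apart did not overlap. In PyMT-N neutrophil-like cells stood above macrophage-like cells (11.4 to 19.4). In PyMT-M T-like cells (48.0 to 65.7) and NK-like cells (36.2 to 50.7) stood above macrophage-like cells (31.5 to 35.8).

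Ifih1, which encodes MDA5, was highest in monocyte-like cells. It had 39.4 CPM in PyMT-N, against 52.7 CPM in PyMT-M monocyte-like cells, 12.9 and 49.6 CPM in macrophage-like cells, and 9.38 and 19.5 CPM in T-like cells. Neutrophil-like cells had 15.8 CPM (101 UMIs) in PyMT-N, against 26.5 CPM (2 UMIs) in PyMT-M. In PyMT-N the monocyte-like level stood above that of neutrophil-like cells, and in PyMT-M monocyte-like and macrophage-like cells could not be separated.

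Tmem173, which encodes STING, was lower in neutrophil-like than in macrophage-like cells of both tumours. It had 8.94 CPM (57 UMIs, 6.77 to 11.6) in PyMT-N, against 13.3 CPM (1 UMI, 0.336 to 74.0) in PyMT-M neutrophil-like cells. Macrophage-like cells had 48.4 CPM in PyMT-N, against 104 CPM in PyMT-M, monocyte-like cells 66.9 and 95.5 CPM, and T-like cells 45.3 and 52.5 CPM. Macrophage RNA, gauged from the C1q genes at 0.247% of their macrophage-like level, would give PyMT-N neutrophil-like cells 0.12 of those 8.94 CPM.

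**Figure D2:**
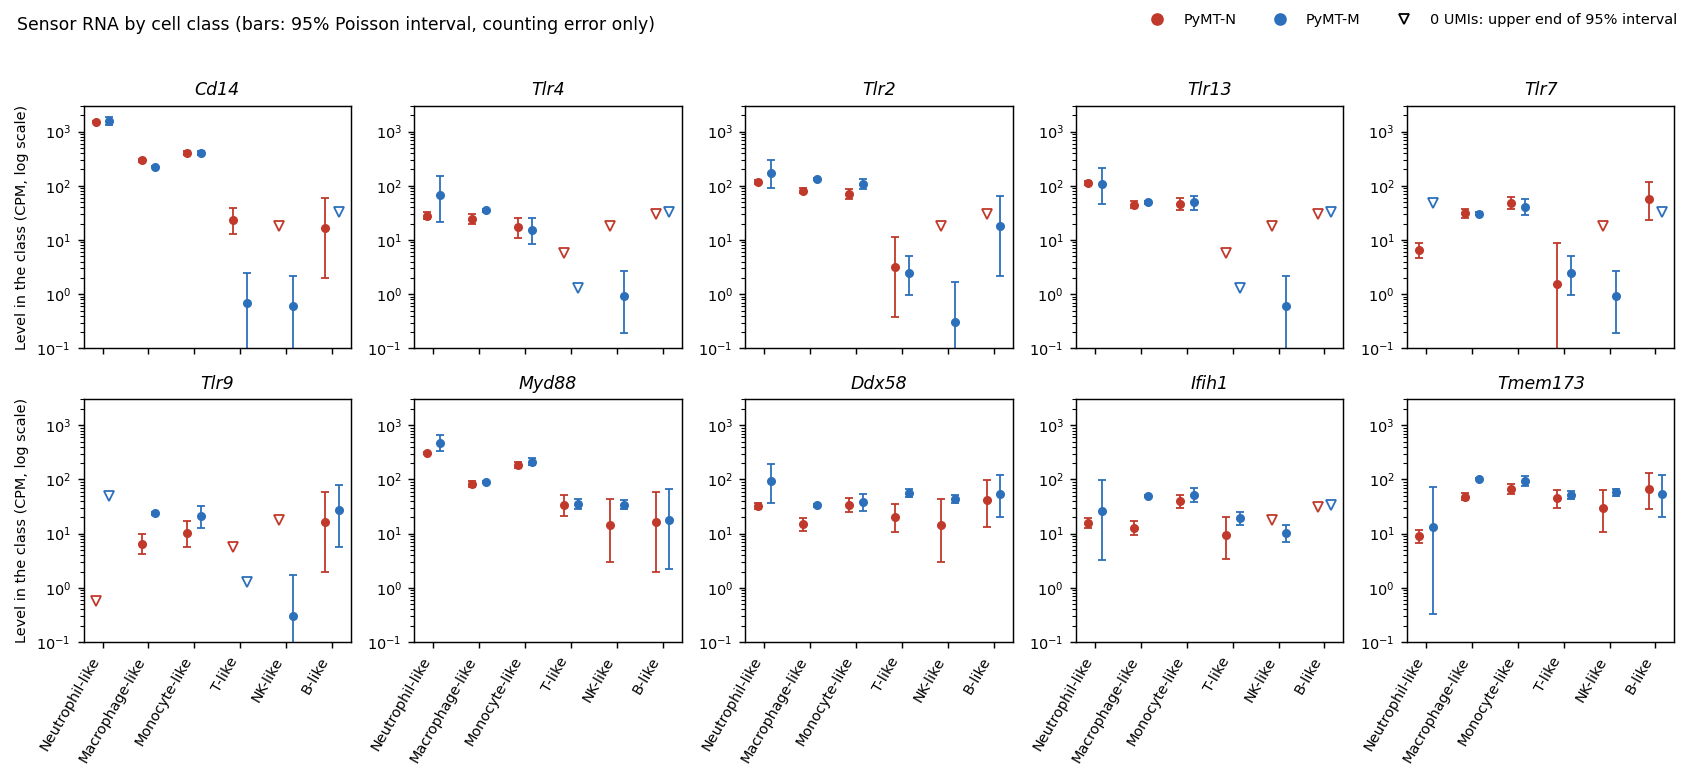
Level of each of the 10 genes (CPM of the class, log axis) by cell class, with PyMT-N in red left of PyMT-M in blue, exact 95% Poisson intervals as bars and open triangles for the upper limit where 0 UMIs were counted. In PyMT-N, Cd14, Myd88 and Tlr13 peak in neutrophil-like cells, while Tlr7, Tlr9 and Tmem173 stand higher in macrophage-like and monocyte-like cells than there.

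Neutrophil-like cells of PyMT-N were not uniform. They lay in 3 main clusters, described by their leading genes against the rest of the class, of 1615 cells (cluster 0, led by Ms4a6d and Ltc4s), 805 cells (cluster 4, led by Ngp, Camp and Ly6g) and 732 cells (cluster 5, led by Tst, Gpnmb and Pdcd1lg2). The clusters were made from the same RNA counts, so these levels are descriptions. Cd14 had 1026 CPM in cluster 0, 1926 CPM in cluster 4 and 1899 CPM in cluster 5. Myd88 had 401 CPM in cluster 0, 328 CPM in cluster 4 and 102 CPM in cluster 5, so in cluster 5 Cd14 was nearly as high as in cluster 4 while Myd88 was at its lowest. Tmem173 had 17.4 CPM (48 UMIs) in cluster 0, against 2.32 CPM (5 UMIs) in cluster 4 and 2.07 CPM (3 UMIs) in cluster 5. Ddx58 ranged from 22.8 to 36.7 CPM, Tlr13 from 102 to 126 CPM and Tlr7 from 6.04 to 6.90 CPM over the 3 clusters, and Tlr9 had 0 UMIs in each.

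Macrophage-like cells of PyMT-M also differed among clusters. The summed level of 33 interferon-stimulated genes reached 12633 CPM in cluster 14 (204 cells, led by Cxcl10 and Ifit1), a cluster with 0 macrophage-like cells of PyMT-N. There Ifih1 stood at 206 CPM and Ddx58 at 125 CPM, against 25.5 to 53.6 CPM for Ifih1 and 18.2 to 34.0 CPM for Ddx58 in the other 5 clusters of over 200 cells. Among these 6 clusters Cd14 was highest in cluster 8 (430 cells, led by Retnla and Lyve1), at 449 CPM, and lowest in cluster 3 (714 cells, led by Fabp5 and Igf1), at 34.9 CPM. Tlr9 had 37.4 CPM in cluster 7 (656 cells, led by the mitotic genes Birc5 and Ccnb2), 31.5 CPM in cluster 1 and 48.5 CPM in cluster 14, but 7.37 CPM in cluster 3 and 7.06 CPM in cluster 8. Tmem173 spread little, from 81.3 to 117 CPM.

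**Figure D3:**
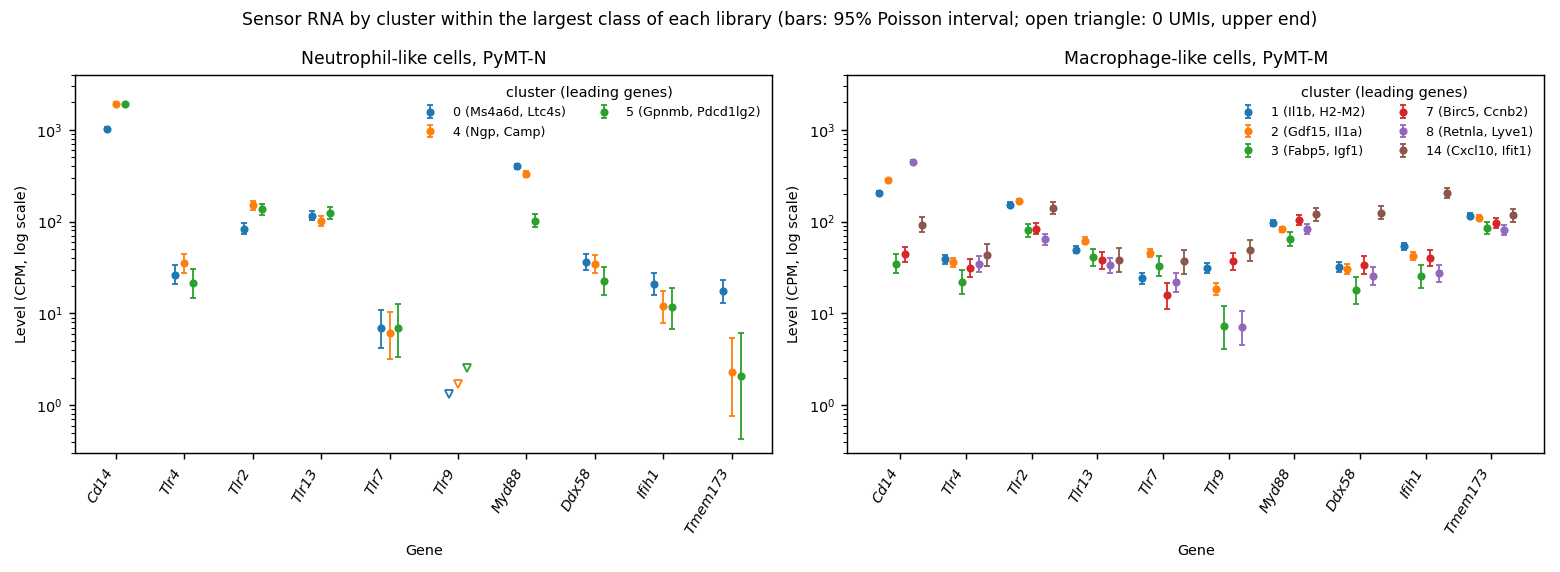
Levels (CPM, log axis) of the 10 genes in the clusters of PyMT-N neutrophil-like cells and of PyMT-M macrophage-like cells. Myd88 is lowest in neutrophil-like cluster 5 at 102 CPM, and Ifih1 and Ddx58 are highest in macrophage-like cluster 14 at 206 and 125 CPM.

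The same class was then set against itself in the other tumour. Ratios are log2 of CPM + 1 in PyMT-N over PyMT-M, for classes of at least 50 cells in both, so the 46 neutrophil-like cells of PyMT-M were left out. In macrophage-like cells 4 of the 10 genes were lower in PyMT-N by 2-fold or more and 0 were higher, where 8.05% of 11813 genes with at least 20 UMIs were lower by that much and 3.68% were higher. The median ratio was -0.60 for the 10 genes and -0.17 for all genes.

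The 4 genes were Ifih1 at -1.87 (-2.39 to -1.53), Tlr9 at -1.71 (-2.49 to -1.28), Ddx58 at -1.11 (-1.58 to -0.78) and Tmem173 at -1.09 (-1.33 to -0.89). Tlr2 at -0.70 and Tlr4 at -0.49 were lower by less, and the intervals of Tlr7 (0.04), Myd88 (-0.13) and Tlr13 (-0.14) included 0. Cd14 was higher in PyMT-N at 0.39 (0.30 to 0.48). The median ratio of genes with at least 100 UMIs was -0.20, and relative to it Ddx58 stood at -0.93 and Tmem173 at -0.90, 2 genes were past 2-fold, and Tlr13 and Myd88 both turned to 0.06. Classes taken from Leiden clusters also left 2 past 2-fold, with Ddx58 at -0.73 and Tmem173 at -0.95.

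The macrophage-like class was not made of the same clusters in the 2 tumours. Cluster 6 held 38.7% of it in PyMT-N and 1.91% in PyMT-M, cluster 3 24.8% and 14%, cluster 8 14.2% and 8.45%, and cluster 1 the largest share, 32.8%, in PyMT-M. Of the 10 genes that led cluster 6 by fold, 4 were monocyte markers and 0 macrophage markers, and cluster 8 had 2 and 0. The monocyte markers summed to 912 CPM in PyMT-N, against 552 CPM in PyMT-M macrophage-like cells. Without the cells of such clusters, Cd14 reversed, to -0.31 with 157 CPM in PyMT-N, against 194 CPM in PyMT-M, while Ifih1 came to -2.82 (6.59 and 52.5 CPM) and Ddx58 to -1.88 (8.78 and 35.1 CPM). Cluster 1, with 3 macrophage-like cells of PyMT-N and 1667 of PyMT-M, had 205 CPM of Cd14 in PyMT-M. In clusters 2, 3 and 7, which were not left out, Cd14 was higher in PyMT-N, so its -0.31 held for the pooled cells only. The part of the cluster mix in that value was not tested. Within clusters by number, Ifih1 stood at -2.81 in cluster 2, -1.80 in cluster 3, -1.93 in cluster 6 and -2.02 in cluster 7, each with an interval below 0, and at -0.29 (-1.30 to 0.58) in cluster 8. Its level was 15.2 CPM in PyMT-N, against 60.8 CPM in PyMT-M in cluster 6, the cluster with the most PyMT-N cells.

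Cd14 did not keep 1 direction over those clusters. It was higher in PyMT-N in cluster 7 (111 CPM in PyMT-N, against 44.1 CPM in PyMT-M, 1.30), cluster 3 (0.83), cluster 6 (0.35) and cluster 2 (0.30), and lower in cluster 8 (276 and 449 CPM, -0.70), with intervals that excluded 0 in each. Ddx58 had intervals below 0 in clusters 2, 6 and 7, and intervals that included 0 in cluster 3 (-0.81) and cluster 8 (0.58, -0.17 to 1.30). Tlr9 had intervals that included 0 in cluster 2 (-0.24), cluster 3 (-0.96) and cluster 8 (-0.30) and intervals below 0 in cluster 7 (-1.53) and cluster 6. In cluster 6 it had 4.88 CPM in PyMT-N, against 27.4 CPM in PyMT-M (-2.27, -3.79 to -1.32). Tmem173 had intervals below 0 in clusters 2, 3 and 6 and ratios of -0.07 in cluster 7 and -0.10 in cluster 8.

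Cluster 6 held 85.1% of the monocyte-like cells in PyMT-N and 69.7% in PyMT-M. In this class none of the 10 genes was 2-fold apart, where 3.02% of 6998 genes were higher and 4.46% lower by that much in PyMT-N. Cd14 stood at -0.01 (-0.21 to 0.18), Ifih1 at -0.41 (-1.01 to 0.17) and Ddx58 at -0.16. Tlr9 stood at -0.94 (-2.11 to 0.07), from 14 UMIs in PyMT-N and 19 in PyMT-M. The intervals of Tlr9 and Ifih1 reached past 2-fold, so these counts cannot show that such a difference was absent. Tlr2 at -0.60 (-1.03 to -0.19) and Tmem173 at -0.51 (-0.96 to -0.07) were lower in PyMT-N beyond counting error.

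T-like cells had at least 20 UMIs over both libraries for 4 of the genes. Ddx58 was lower in PyMT-N, with 20.3 CPM (13 UMIs) in PyMT-N, against 56.3 CPM (162 UMIs) in PyMT-M, a ratio of -1.43 (-2.41 to -0.66). It was the only 1 of 4 past 2-fold, where 9.63% of 8444 genes were lower and 4.59% higher by that much, and under 4 of the alternatives 2 of 4 were. Ifih1 at -0.98 (-2.56 to 0.16), Tmem173 at -0.21 and Myd88 at -0.04 had intervals that included 0. The T-like classes also differed in makeup: cluster 11, led by Il17a, Icos and Foxp3, held 75.4% of PyMT-N and 21.4% of PyMT-M T-like cells, and cluster 10, led by Gzmk and Cd8a, held 22.2% and 76.7%. The part of that makeup in the Ddx58 ratio was not tested.

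**Figure D4:**
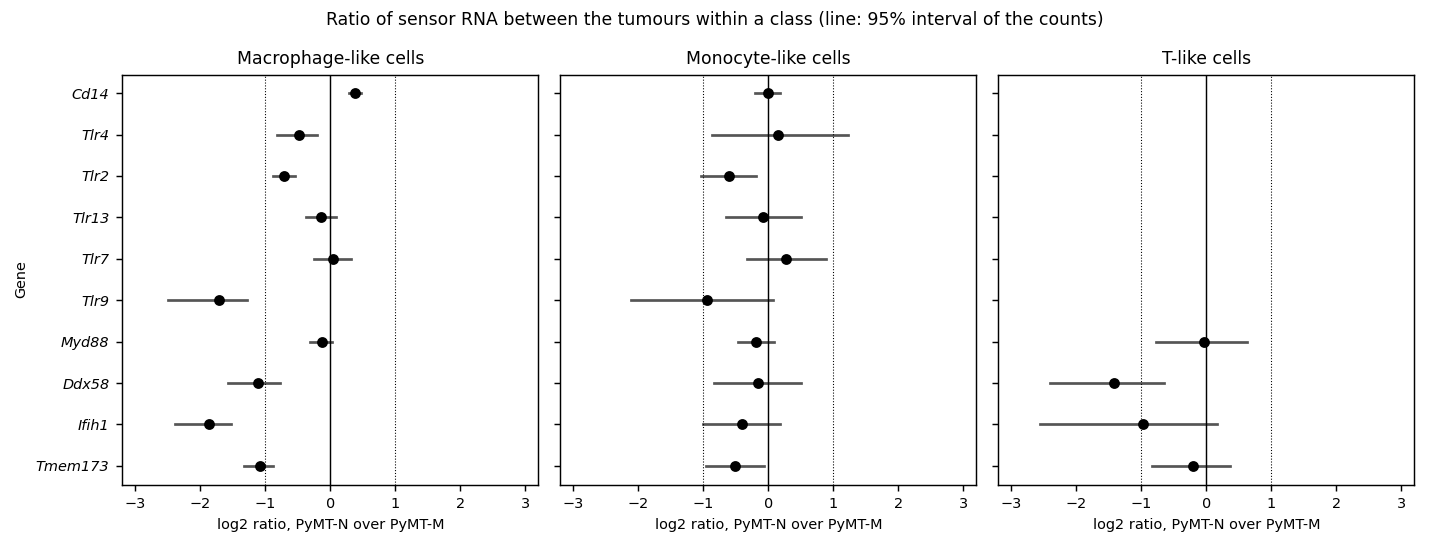
Log2 ratio of each gene, PyMT-N over PyMT-M, with 95% counting intervals, in macrophage-like, monocyte-like and T-like cells, with dotted lines at 2-fold. Ifih1, Tlr9, Ddx58 and Tmem173 lie below -1 in macrophage-like cells and none of the 10 does in monocyte-like cells. The pooled Cd14 ratio of macrophage-like cells, 0.39, becomes -0.31 without clusters led by markers of another class. Within clusters 2, 3 and 7, which remain, Cd14 stands at 0.30, 0.83 and 1.30.

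Interferon-stimulated genes stood beside these differences. Their summed level over 33 genes, none of them a member, was 2844 CPM in PyMT-N, against 3783 CPM in PyMT-M macrophage-like cells, 2503 and 5621 CPM in T-like cells, and 7885 and 7055 CPM in monocyte-like cells. Of the list, 32 genes were measured in macrophage-like cells, and 24 were lower and 1 higher by 2-fold or more in PyMT-N, with a median of -1.62. In T-like cells 23 of 27 were lower, with a median of -1.76, and in monocyte-like cells 5 of 31 were lower and 2 higher, with a median of -0.33. Of all genes measured, 8.05% were lower and 3.68% higher by that much in macrophage-like cells, with a median of -0.17. In T-like cells these shares were 9.63% and 4.59% (median -0.12), and in monocyte-like cells 4.46% and 3.02% (median -0.09). Ifi27l2a alone made up 2162 CPM in PyMT-N, against 1541 CPM in PyMT-M of the macrophage-like sums, at 0.49, so the sum and the median of the list differ in size. The part of interferon-stimulated transcription in the sensor ratios was not tested.

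Cells were next divided by their own interferon-stimulated UMIs after thinning to 1000 UMIs, into ranges of 0, 1 to 4, and 5 or more, and those UMIs were left out of the CPM totals. The limits cut through a continuous distribution and mark no cell types. In PyMT-N neutrophil-like cells the ranges held 31.4%, 48.0% and 20.6% of cells. Ddx58 had 26.8, 23.9 and 52.7 CPM over the rising ranges, and Ifih1 12.9, 13.3 and 33.0 CPM. The log2 ratio of the highest over the lowest range was 0.95 (0.18 to 1.79) for Ddx58 and 1.29 (0.25 to 2.52) for Ifih1, from 32 against 25 and 20 against 12 UMIs. Cd14 had 1271, 1405 and 1877 CPM (0.56, 0.44 to 0.68) and Tlr2 75.0, 125 and 140 CPM (0.89, 0.43 to 1.38). Myd88 had 300.1, 314 and 331 CPM, with a ratio of 0.14 (-0.13 to 0.41). Tmem173 had 15, 14 and 1 UMIs over the same ranges. The ranges were not divided by cluster, and the interferon-stimulated genes summed to 2077 CPM in cluster 0, 5457 CPM in cluster 4 and 3427 CPM in cluster 5. In that order of clusters Tlr2 had 83.8, 151 and 137 CPM, Cd14 1026, 1926 and 1899 CPM, and Tmem173 17.4, 2.32 and 2.07 CPM. The part of the cluster mix in the range ratios was not tested.

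In the 674 thinned PyMT-N macrophage-like cells counts were few: Ifih1 had 0, 3.16 and 54.8 CPM, the last from 7 UMIs, and Tmem173 30.7, 56.9 and 118 CPM (1.90, 0.55 to 3.47). Cd14 there had 211, 240.2 and 376 CPM (0.83, 0.23 to 1.44). Ifi27l2a carried most of the interferon-stimulated UMIs of that class, 2162 of 2844 CPM, and without it the top range held 14 cells (2.08%) in place of 129 (19.1%), with 1 UMI of Ifih1 and 3 of Tmem173, and the lowest range had 51.3 CPM of Tmem173.

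In PyMT-M macrophage-like cells the ranges held 21.2%, 53.7% and 25.0% of cells. Ddx58 had 9.71, 21.5 and 69.8 CPM (2.73, 1.90 to 3.96) and Ifih1 26.2, 41.5 and 82.3 CPM (1.61, 1.02 to 2.32). Tlr13 ran down, with 73.8, 53.8 and 44.1 CPM (-0.73, -1.28 to -0.22), whereas the intervals of Cd14 (-0.04) and Tlr2 (-0.10) included 0. Tlr7 ran up, with 22.3, 26.9 and 38.2 CPM (0.75, 0.02 to 1.57), from 23 UMIs in the lowest and 46 in the top range. The interval of Tlr9 (0.47) included 0. With Ifi27l2a left out of the list, Cd14 in these cells had 229, 195 and 159 CPM (-0.53). Ddx58 and Ifih1 thus had their highest level in the top range in PyMT-N neutrophil-like and in PyMT-M macrophage-like cells. Differences between the classes were not tested.

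**Figure D5:**
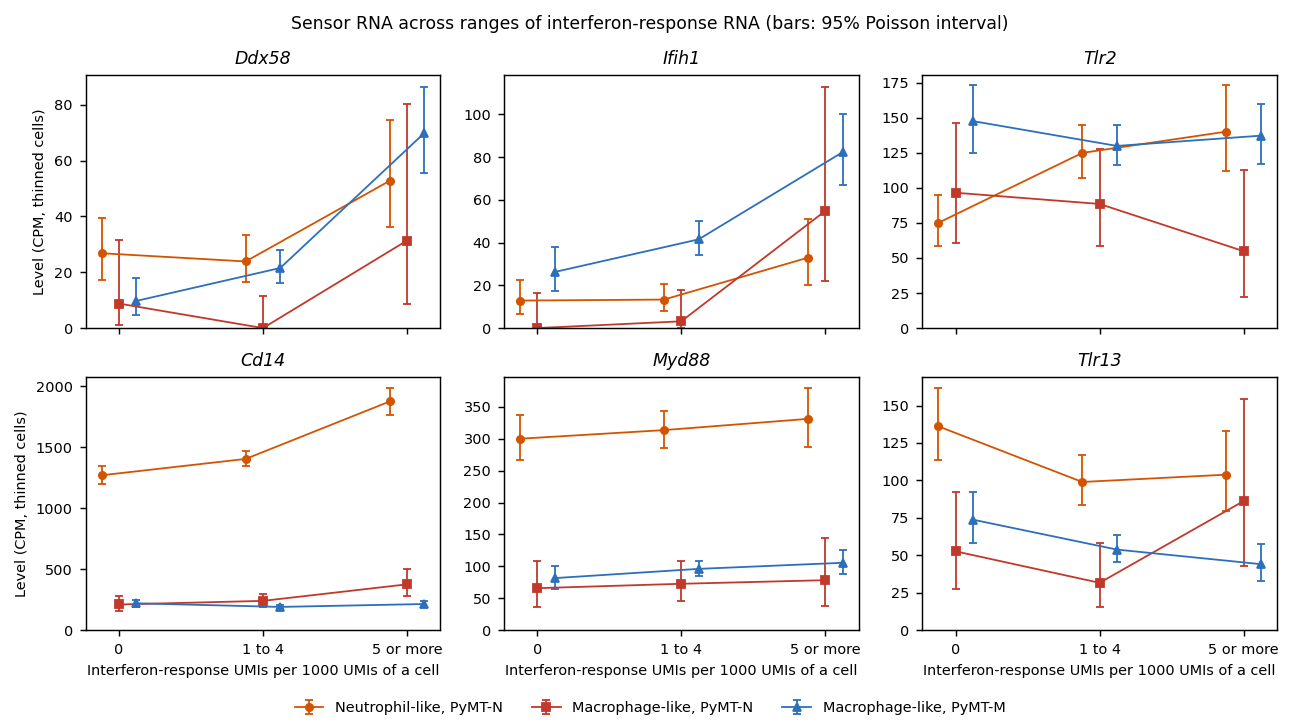
Levels (CPM of cells thinned to 1000 UMIs, 95% Poisson intervals) of 6 genes over ranges of interferon-stimulated UMIs per cell, for PyMT-N neutrophil-like (orange), PyMT-N macrophage-like (red) and PyMT-M macrophage-like cells (blue). Ddx58 reaches 52.7 CPM in the top range of PyMT-N neutrophil-like cells and 69.8 CPM in that of PyMT-M macrophage-like cells, and Tlr13 of that PyMT-M class has 44.1 CPM in the top and 73.8 CPM in the lowest range.

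The rest of the pathway was read from 5 lists of 73 genes: other sensors, co-receptors and adaptors, kinases and transcription factors, nucleases and editing enzymes, and negative regulators. In macrophage-like cells 71 were measured, of which 18 were lower and 3 higher by 2-fold or more in PyMT-N, against 8.05% and 3.68% of all genes, with a median of -0.44. Median scaling left 11 lower, and the share of all genes is not given under that scaling. Among 16 other sensors 5 were lower, among them Tlr12 (25.3 CPM in PyMT-N, against 87.2 CPM in PyMT-M, -1.75), Tlr8, an RNA receptor (3.95 and 14.2 CPM, -1.62), and Zbp1, a sensor of left-handed nucleic acid (38.7 and 87.2 CPM, -1.15). Among 14 co-receptors and adaptors 4 were lower, with Unc93b1, the carrier of endosomal Toll-like receptors, at 422 CPM in PyMT-N, against 1402 CPM in PyMT-M (-1.73).

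Of 18 kinases and transcription factors in macrophage-like cells 3 were lower and 0 higher. Irf7, the factor that drives type I interferon genes downstream of TLR7 and TLR9, had 124 CPM in PyMT-N, against 479.6 CPM in PyMT-M (-1.94), and Irf5 124 and 275 CPM (-1.14). Of 11 nucleases and editing enzymes 3 were lower and 2 higher. Pld4, a lysosomal exonuclease that digests ligands of TLR9 and TLR7, had 349.9 CPM in PyMT-N, against 1255 CPM in PyMT-M (-1.84), and Dnase1l3 17.9 and 70.9 CPM (-1.93). Of 12 negative regulators 3 were lower and 1 higher, with Socs3, an inhibitor of cytokine receptor signalling, at 227 and 1106 CPM (-2.28). The higher genes, named here after their values were seen, were the ribonucleases Rnaset2b (133 and 59.9 CPM, 1.14) and Rnaset2a (6.31 and 2.54 CPM, 1.05) and the regulator Tnip3 (18.2 and 8.25 CPM, 1.05). Their count, 3 of 71, is near the 3.68% of all genes that were higher in this class. All these values carry the mix of clusters given above.

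Monocyte-like cells had 59 of the 73 genes measured, with 6 lower and 2 higher, against 4.46% and 3.02% of all genes, and a median of -0.32, against -0.09. The count of higher genes is near that share. With a minimum of 100 UMIs, 23 were measured, 2 of them lower and 1 higher. Socs3 had 455 CPM in PyMT-N, against 1242 CPM in PyMT-M (-1.45), Rela, a subunit of NF-kB, 45.3 and 101 CPM (-1.14), and Rnaset2b, a lysosomal ribonuclease, 119 and 36.2 CPM (1.69). Rnaset2b and Rnaset2a are near-identical copies, so their split may be uncertain. In T-like cells 49 were measured, with 10 lower and 1 higher, against 9.63% and 4.59% of all genes, and a median of -0.21, against -0.12. With the minimum of 100 UMIs, 2 of 25 were lower, again with no share of all genes given at that minimum. Zbp1 had 46.9 CPM in PyMT-N, against 216 CPM in PyMT-M (-2.18), Irf7 59.4 and 245 CPM (-2.03), and Rnaset2b 188 and 83.8 CPM (1.15).

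In neutrophil-like cells the 2 tumours can be set side by side only, given 46 cells in PyMT-M. Those cells held 75335 UMIs in all, so the lower values there rest on few molecules. The makeup differed too: cluster 0 held 51.2% of PyMT-N and 34.8% of PyMT-M neutrophil-like cells, cluster 4 25.5% and 58.7%, and cluster 5 23.2% and 6.52%. The part of that makeup in the values was not tested. Nlrp3, the inflammasome sensor, had 137 CPM in PyMT-N, against 265 CPM in PyMT-M, Zbp1 60.4 and 106 CPM, Unc93b1 177 and 345 CPM, Irf7 173 and 451 CPM, and Samhd1, which depletes the nucleotides for DNA synthesis, 217 and 531 CPM. Nfkbia, the inhibitor of NF-kB, had 1590.0 and 1633 CPM, and Socs3 678 and 1619 CPM. Neutrophil-like cells of PyMT-N thus carried RNA of the carrier Unc93b1 with 113 CPM of Tlr13, little Tlr7 and no detected Tlr9.

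Genes whose levels ran most like each member were ranked by Pearson r of log2(CPM + 1) over 14 class-and-tumour sums of at least 20 cells, among 7663 genes with at least 500 UMIs. The 14 points share 2 libraries and differ in depth, so r is a description. Tlr13 ran closest with Cd300a (0.99), Cd14 with Il1b (0.96), Tlr2 with Arl11 (0.96), Tlr4 with Sdcbp (0.97) and Myd88 with Cd300ld and Nlrp3 (0.96 each). Tlr9 ran with Gm15987 and Cd40 (0.95 each) and H2-Ab1 (0.94), Ifih1 with Atg7 (0.97), Tmem173 with Mtx1 (0.91) and Tlr7 with Eng (0.89). The lowest best likeness was that of Ddx58, 0.85 with Tk2, next to Cmpk2 at 0.84.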

How the data were processed

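The authors deposited, for each library, raw UMI counts of every gene in every barcode, not normalised. Per the file headers the matrices come from software version 3.1.0. The submitters' processing notes name Cell Ranger, Seurat and mm10, and their versions are not given in the sources used here. Deposited totals were 14907736 UMIs in PyMT-N and 43977988 in PyMT-M, and the kept cells held 13944688 and 39314226.

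Barcodes with under 200 genes or over 10% mitochondrial UMIs were dropped, in all 26 PyMT-N and 119 PyMT-M barcodes. Scrublet marked 0 doublets by its automatic threshold in each library, so the cells with the highest scores were removed up to an expected 0.8% per 1000 barcodes, 201 in PyMT-N and 440 in PyMT-M. Each cell took the class with the highest mean of its markers' scaled log UMIs per 10000, out of 14 marker lists, and needed at least 3 markers, 3 marker UMIs and a lead of 0.05. The markers were fixed earlier, the scoring rule after the files were seen. Both libraries were also clustered together (2000 variable genes, 30 principal components, 15 neighbours, Leiden at resolution 1), and the class of 98.8% of 11013 classed cells matched the name of their cluster, with monocyte-like cells counted as macrophage-like and rare classes joined. UMIs were summed per class and library and given as CPM with exact Poisson intervals, ratios with exact conditional binomial intervals, and shares with exact Clopper-Pearson intervals, all at 95%. With 1 library per line no test was made. A limit for 0 UMIs in the text is the upper end of the exact interval. List genes needed 20 UMIs over both libraries.

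All 10 members were named. Of each other list the rule named the 2 genes with the highest CPM and the 2 with the largest ratio among those with at least 100 UMIs, per class, and for likeness the 3 genes with the highest r, of which the text gives a part. Ifi27l2a and the promoters shown were picked after their values were seen. The members, lists and alternatives were chosen with earlier results of these data known. Alternatives covered classes from Leiden clusters, a stricter marker rule, no cell filter, no doublet removal, median-ratio scaling, pseudocounts of 0.1 and 5 CPM in place of 1, minimum counts, thinning, and the top interferon range. Added after seeing the data were leaving out shared barcodes, leaving Ifi27l2a out of the interferon list, and leaving out clusters led by markers of another class. Software was scanpy 1.11.5, anndata 0.12.19, leidenalg 0.10.2, igraph 0.11.9, scikit-learn 1.9.0, pandas 2.3.3, scipy 1.17.1, numpy 2.4.6 and matplotlib 3.10.9, under Python 3.11.15. Scripts were tested on simulated data.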

Additional observations from a re-analysis of the deposited data

How the results depend on the processing

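No paired analysis was possible because each line had 1 library. The shares of all genes past 2-fold are given for the main setting only, so the counts under alternatives have none beside them. Classes from Leiden clusters, which join most monocyte-like cells to macrophage-like ones, gave 2 in place of 4 members lower in macrophage-like cells, 2 in place of 1 lower in T-like cells, 2 in place of 1 pathway genes higher in T-like cells, and shares of the members' UMIs of 76.5% in PyMT-N neutrophil-like and 91.3% in PyMT-M macrophage-like cells. Median-ratio scaling also gave 2 members lower and 11 in place of 18 pathway genes lower in macrophage-like cells, and 2 pathway genes higher in T-like cells. In T-like cells 2 members were lower under the stricter marker rule, with no filter on cells and with a pseudocount of 0.1 CPM. With no doublet removal 1 member (Cd14) was higher and 2 pathway genes were. With no minimum count 1 member and 7 pathway genes were higher in T-like cells, and in monocyte-like cells 5 in place of 2 were higher and 10 in place of 6 lower. With a minimum of 100 UMIs 1 was higher and 2 lower in monocyte-like cells, and 2 in place of 10 lower in T-like cells, where fewer genes are tested. A pseudocount of 5 CPM left 1 in place of 3 higher in macrophage-like cells. The pooled Cd14 ratio of macrophage-like cells reversed, to -0.31, without clusters led by markers of another class. Within clusters 2, 3 and 7, which remained, Cd14 was higher in PyMT-N. Under the same setting 3 members were lower by 2-fold. No other ratio whose interval excluded 0 changed sign under the alternatives run. Leaving Ifi27l2a out of the interferon list moved 3 of 24 range ratios beyond their intervals: Cd14 in PyMT-M macrophage-like cells to -0.53, and Tlr2 and Tlr13 in PyMT-N macrophage-like cells, which had 0 UMIs in the 14 cells left in the top range. Depth limits the neutrophil-like values of PyMT-M, from 46 cells, and the T-like, NK-like and B-like values of PyMT-N. Without doublet removal Cd14 in T-like cells stood at 48.8 CPM in PyMT-N, against 3.43 CPM in PyMT-M.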

Other observations

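Interferon genes themselves were almost unseen. Over 20 interferon genes, 2 UMIs were counted in PyMT-N and 26 in PyMT-M. Ifnb1 accounted for 2 UMIs in 1 PyMT-N macrophage-like cell and for 25 UMIs in 15 PyMT-M macrophage-like cells, and the remaining UMI, of Ifnz, lay in a PyMT-M T-like cell. The 1 PyMT-N cell had 0 UMIs of Ifih1 and of Ddx58 and 554.6 CPM of the interferon-stimulated genes, against 2844 CPM in its class. That cell held 5409 UMIs, so these values rest on few molecules. The 15 PyMT-M cells, picked by their Ifnb1 UMIs, had a median of 6132 UMIs against 4897 for the class. They had 227 CPM of Ifih1 (25 UMIs), against 49.6 CPM in the class, 72.7 CPM of Ddx58 (8 UMIs), against 33.6 CPM, and 7042 CPM of the interferon-stimulated genes, against 3783 CPM. Of the other members, Tlr9 had 63.6 CPM (7 UMIs), against 23.8 CPM in the class, and Tlr4 had 63.6 and 35.1 CPM. Tlr7 had 54.5 and 30.5 CPM, Tmem173 127 and 104 CPM, Cd14 227 and 225 CPM, and Tlr13 54.5 and 49.3 CPM. Tlr2 had 109 and 133 CPM, and Myd88 36.3 CPM (4 UMIs) and 91.3 CPM.

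Plasmacytoid dendritic-like cells, the type known for interferon release through TLR7 and TLR9, numbered 6 in PyMT-N and 17 in PyMT-M. They had 2 Tlr9 UMIs in PyMT-N and 3 in PyMT-M, and 0 and 6 Tlr7 UMIs. The label was mixed in PyMT-M. Its 17 cells had 11225 CPM of plasmacytoid dendritic markers, but also 5608 CPM of macrophage and 4102 CPM of monocyte markers. The C1q genes stood there at 8.33% of their macrophage-like level. B-like cells of PyMT-N had 57.9 CPM of Tlr7 from 7 UMIs, and those of PyMT-M had 0 UMIs. Epithelial or tumour-like cells, which the sort for CD45 should remove, numbered 8 in PyMT-N, against 135 in PyMT-M. They had 54.5 CPM of Cd14 (4 UMIs, 14.8 to 139) in PyMT-N, against 57.2 CPM (83 UMIs, 45.6 to 71.0) in PyMT-M. In the PyMT-M ones the neutrophil markers, of which 7 of 12 were seen, summed to 13806 CPM and the macrophage markers to 1910 CPM.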
